A study of Sus scrofa with 18 samples.

Results

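The enzymes of glycolysis and lactate formation HK2, GPI, ALDOA, TPI1, GAPDH, PGK1, ENO1, LDHA and LDHB were followed through gestation in the endometrium, the lining of the uterus, of Yorkshire and Meishan gilts. All probe sets of the porcine GeneChip whose platform gene symbol was 1 of these 9 names were taken, and control probe sets were left out. This gave 11 probe sets of 23999, for 7 of the 9 enzymes. No probe set carried the symbol HK2 or ALDOA, and these 2 enzymes were not analysed here. GAPDH had 5 probe sets and GPI, TPI1, PGK1, ENO1, LDHA and LDHB had 1 each.

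The 18 arrays formed 6 groups of 3. They were the Yorkshire groups GD15, GD26 and GD50 (GD, gestational day) and the Meishan groups of the same 3 days. All gilts were pregnant and had been mated to boars of their own breed. Meishan is a prolific Chinese breed and Yorkshire a less prolific one. For each array, RNA from matching attachment sites of 2 gilts was mixed in equal volumes, and 1 pair of gilts gave all 3 mixtures of a group, so the p-values measure the spread between sites but hold no spread between animals. Values are log2 intensities per probe set. They cannot tell more cells of a type from more RNA per cell.

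Glycolysis splits glucose into pyruvate in the cytosol. Hexokinase traps glucose as glucose 6-phosphate, GPI turns this into fructose 6-phosphate, aldolase cuts the later bisphosphate into 3-carbon sugars, and TPI1 interconverts these. GAPDH, PGK1 and enolase (ENO1) carry out later steps, and lactate dehydrogenase converts pyruvate to lactate and back. Its LDHA and LDHB subunits mix into tetramers: those rich in LDHA are typical of tissues that release lactate and those rich in LDHB of tissues that oxidize it. The endometrium passes glucose and its products to the conceptus, and the pig placenta is known for a high content of fructose.

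A probe set was tested if 6 or more arrays gave it an intensity over 100, as was the case for 9320. Of the 11 enzyme probe sets, 9 passed, and each of them lay above 100 on all 18 arrays. The other 2, both of GAPDH, stayed at the lowest values of the arrays, from 2.18 to 3.23. Of the 9 that passed, 8 lay above the median of the tested probe sets on every array. The exception was the third GAPDH probe set, Ssc.1035.1.S1_at. A gene is represented below by its brightest probe set, which for GAPDH was Ssc.14942.1.S1_at. In RefSeq, 2 genes of the pig carry the symbol LDHB, and the probe set was assigned by symbol alone.

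The 6 arrays of Yorkshire GD26 and GD50 stood apart from the other 12. Their medians over the tested probe sets were 7.78 to 8.13, against 8.31 to 8.40, and 7209 to 8114 of their tested probe sets exceeded an intensity of 100, against 8445 to 8818. The mean of the 18 hybridization control probe sets was 11.7 to 13.7 on these 6 arrays and 9.997 to 11.3 on the other 12. The 5′ minus 3′ difference of the actin control probe sets was −2.91 to −2.38 on the 6 and −5.23 to −3.54 on the other 12. That of the Ssc-gapdh control pair was −0.52 to 0.03 against −1.56 to −0.74. The other control pairs did not separate the arrays. The Ss_Gapdh pair lay mostly lower on the 6, at −1.82 to −1.46 against −1.48 to −1.07. The Ssc-gapdh s_at pair gave −0.67 to 0.05 against −0.47 to 0.76, and EF1A gave −0.41 to −0.28 against −0.73 to −0.04. The part of these differences in the Yorkshire changes and in the breed comparisons was not tested. Without the 6 arrays neither kind of comparison exists beyond GD15, so results are also given with each array centred on its median. The change from GD15 that the median tested probe set showed on GD26 in Yorkshire was −0.47 as deposited and −0.08 after centring, against −0.06 and −0.02 in Meishan. Between Yorkshire and Meishan the median difference was −0.42 on GD26 and −0.46 on GD50 as deposited.

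Markers of the tissue moved between days as well. Of the endometrial markers, FOXA2, ACP5 and MSX1 were measured, PGR and ESR1 did not pass the filter, and HOXA10 and HOXA11 had no probe set. By GD26, 1 of the 3 measured rose and 2 fell, in both breeds. Of 11 trophoblast markers, which belong to the conceptus side of the attachment site, 6 were measured and 5 of them rose by GD26 in both breeds. Their summed intensity was 294 to 358 on GD15, 52904 to 63323 on GD26 and 36938 to 55300 on GD50 in Yorkshire. In Meishan it was 339 to 431 on GD15, 27533 to 51847 on GD26 and 61754 to 72002 on GD50. Changes are given as bounds, computed against an intensity of 100, where the dimmer day had no array over it. Of the 5 trophoblast markers that rose, PLET1 and PAG6 had the largest bounds. They were at least 306-fold and 204-fold higher on GD26 than on GD15 in Yorkshire, and at least 273-fold and 84.2-fold higher in Meishan. PPAG3, HSD3B1 and GATA3 were at least 22.7-fold, 18.4-fold and 15.0-fold higher in Yorkshire, and at least 20.7-fold, 5.06-fold and 5.04-fold higher in Meishan. No leukocyte marker and none of AFP, ALB and TTR passed the filter. The 3 smooth muscle markers measured also rose in both breeds, by medians of at least 1.01 in Yorkshire and 0.84 in Meishan with values under 100 set to 100. Of 5 epithelial markers, 1 rose and 3 fell in Yorkshire, and 2 rose and 2 fell in Meishan. Of 3 stromal markers measured, 1 rose and 1 fell in Yorkshire, and 1 rose in Meishan. The 4 endothelial markers measured gave the same counts. The 1 red blood cell marker measured fell in both breeds. Over all tested probe sets, 20.3% rose and 44.9% fell in Yorkshire, and 23.8% rose and 27.1% fell in Meishan. The part of the cells with these markers in the enzyme changes given next was not tested.

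Between GD15 and GD26, 6 of the 7 measured enzymes rose and LDHB fell, in both breeds. LDHA and ENO1 changed most: LDHA was 2.68-fold higher on GD26 in Yorkshire and 4.05-fold higher in Meishan, and ENO1 was 3.05-fold and 2.41-fold higher in these breeds. LDHB was 1.76-fold lower in Yorkshire and 1.75-fold lower in Meishan. Over all 9320 tested probe sets, 20.3% rose and 44.9% fell in Yorkshire, and 23.8% rose and 27.1% fell in Meishan. The median log2 fold change of the 7 enzymes was 0.86 in Yorkshire and 0.59 in Meishan, against −0.47 and −0.06 for all tested probe sets. The arrays of GD26 and GD15 did not overlap for any of the 7 enzymes in either breed. Of all tested probe sets, 23.8% in Yorkshire and 26.9% in Meishan had every GD26 array above every GD15 array, and 50.9% and 31.3% had every GD26 array below. After centring the calls were the same for the 7 enzymes, 6 higher and 1 lower in both breeds, with medians of 1.25 in Yorkshire and 0.63 in Meishan. Over all tested probe sets, 29% were then higher and 30.7% lower in Yorkshire, and 25.4% higher and 25.5% lower in Meishan. Scaled on the actin and EF1A control probe sets, ENO1 and LDHA were the 2 of the 7 still called higher in Yorkshire. LDHB was still called lower there, while in Meishan the calls were again 6 higher and 1 lower. On this scale the median of all tested probe sets was −0.99 in Yorkshire and −0.13 in Meishan. Leaving out Yorkshire GD26 arrays 2 and 3 together leaves a single array of that group. The Yorkshire changes were then 0.48 for GPI, 0.44 for GAPDH, 1.02 for TPI1 and 0.89 for PGK1. They were 1.48 for ENO1, 1.73 for LDHA and −0.81 for LDHB.

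**Figure D1:**
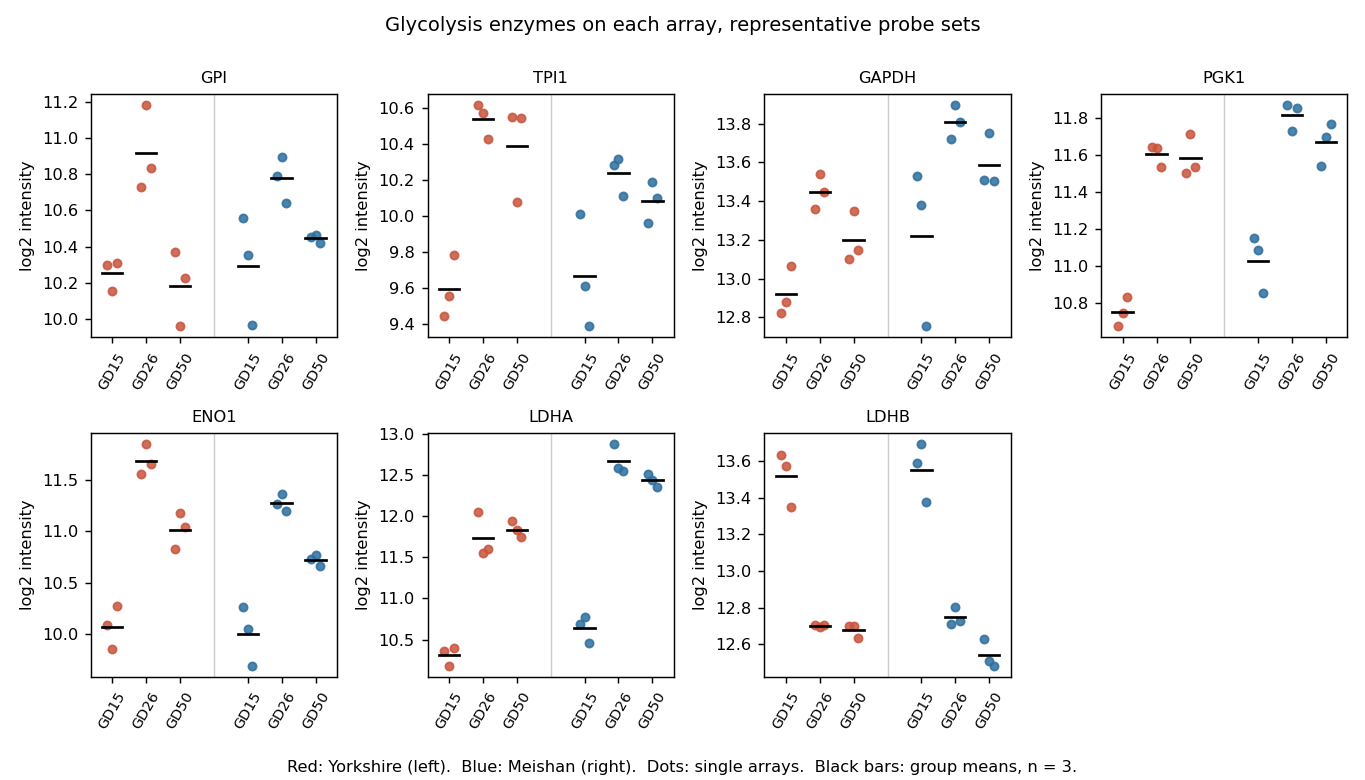
Log2 intensity of the representative probe set of each enzyme (y axis, its own range in each panel) on every array, by gestational day (x axis), with Yorkshire in red on the left and Meishan in blue on the right. Dots are single arrays and black bars are group means of 3 arrays. GPI, TPI1, GAPDH, PGK1, ENO1 and LDHA lie higher on GD26 than on GD15 in both breeds, and LDHB lies lower.

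GPI and TPI1 act early in the pathway, before it yields ATP. In Yorkshire, GPI measured 10.30, 10.16 and 10.31 on GD15, 10.73, 11.18 and 10.84 on GD26 and 10.37, 9.96 and 10.23 on GD50. In Meishan it measured 10.56, 10.35 and 9.97 on GD15, 10.79, 10.90 and 10.64 on GD26 and 10.45, 10.46 and 10.42 on GD50. All GD26 arrays were above all GD15 arrays of their breed, and the Yorkshire GD50 arrays were back within or below the range of Yorkshire GD15 except for the first. GPI rose by 0.66 ± 0.18 (log2 fold change ± SE, adjusted p = 0.0104) in Yorkshire by GD26, and by 0.48 ± 0.16 (adjusted p = 0.0304) in Meishan. The Meishan call was lost without GD15 array 2 or 3 or GD26 array 1 or 2, at adjusted p up to 0.0996. In Yorkshire, scaling on the actin and EF1A control probe sets left 0.15 (adjusted p = 0.509).

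TPI1 measured 9.45, 9.56 and 9.79 on GD15, 10.61, 10.57 and 10.42 on GD26 and 10.55, 10.08 and 10.54 on GD50 in Yorkshire. The Meishan arrays gave 10.01, 9.61 and 9.39 on GD15, 10.28, 10.32 and 10.11 on GD26 and 9.96, 10.19 and 10.10 on GD50. The GD26 arrays again lay above the GD15 arrays, by a wide gap in Yorkshire and narrowly in Meishan, where the first GD15 array was close to GD26. TPI1 rose by 0.94 ± 0.19 (adjusted p = 0.00168) in Yorkshire and by 0.57 ± 0.17 (adjusted p = 0.0190) in Meishan. The Meishan call was lost without GD15 array 2 or GD26 array 1 or 2, at adjusted p up to 0.0624, and the Yorkshire value was 0.43 (adjusted p = 0.0658) on the actin and EF1A scale.

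GAPDH oxidizes glyceraldehyde 3-phosphate and is often used as a constant transcript for scaling. Its representative probe set measured 12.82, 12.88 and 13.06 on GD15, 13.36, 13.54 and 13.45 on GD26 and 13.10, 13.35 and 13.15 on GD50 in Yorkshire. Meishan arrays gave 13.53, 13.38 and 12.75 on GD15, 13.72, 13.90 and 13.81 on GD26 and 13.51, 13.75 and 13.51 on GD50. The third Meishan GD15 array was the lowest of all 18, and in Yorkshire every GD26 array lay above all others, while in Meishan GD26 and GD50 overlapped. By GD26, GAPDH rose by 0.53 ± 0.16 (adjusted p = 0.0139) in Yorkshire and by 0.59 ± 0.20 (adjusted p = 0.0312) in Meishan. The Yorkshire call was lost without GD15 array 1 or 2 (adjusted p = 0.0587 and 0.0534), and scaling on actin and EF1A left a Yorkshire value of 0.02 (adjusted p = 0.943). Without the third GD15 array, the Meishan value was 0.35 (adjusted p = 0.0545). The Meishan call was also lost without any 1 of the 3 GD26 arrays.

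The 3 GAPDH probe sets past the filter did not move alike. The second, Ssc.14942.1.S1_s_at, measured 12.01, 12.13 and 12.41 on GD15, 12.93, 13.18 and 13.20 on GD26 and 12.69, 12.56 and 12.88 on GD50 in Yorkshire. In Meishan it measured 12.77, 12.63 and 12.00 on GD15, 12.85, 12.74 and 12.86 on GD26 and 12.04, 12.24 and 12.24 on GD50. It rose by 0.92 ± 0.18 (adjusted p = 0.00143) in Yorkshire, while in Meishan the 2 days overlapped and the change was 0.35 ± 0.19 (adjusted p = 0.155). On the actin and EF1A scale the Yorkshire value was 0.41 (adjusted p = 0.0786).

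The third GAPDH probe set split the breeds on GD26 and GD50. It measured 7.49, 7.88 and 7.77 on GD15, 11.14, 11.36 and 11.34 on GD26 and 10.94, 10.49 and 10.60 on GD50 in Yorkshire. In Meishan it measured 8.21, 8.50 and 8.37 on GD15, 8.31, 8.41 and 8.11 on GD26 and 7.80, 7.89 and 7.64 on GD50. The 6 Yorkshire GD26 and GD50 arrays, which are the arrays that stood apart in their controls, were all above 10, and the other 12 were all below 9. By GD26 it rose by 3.57 ± 0.18 (adjusted p = 4.01e-07) in Yorkshire, with a Meishan change of −0.08 ± 0.14 (adjusted p = 0.646). Over the 18 arrays its correlation with the representative GAPDH probe set was −0.01, and with the second it was 0.72. For deviations of the arrays from their group means these correlations were 0.01 and 0.10.

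**Figure D2:**
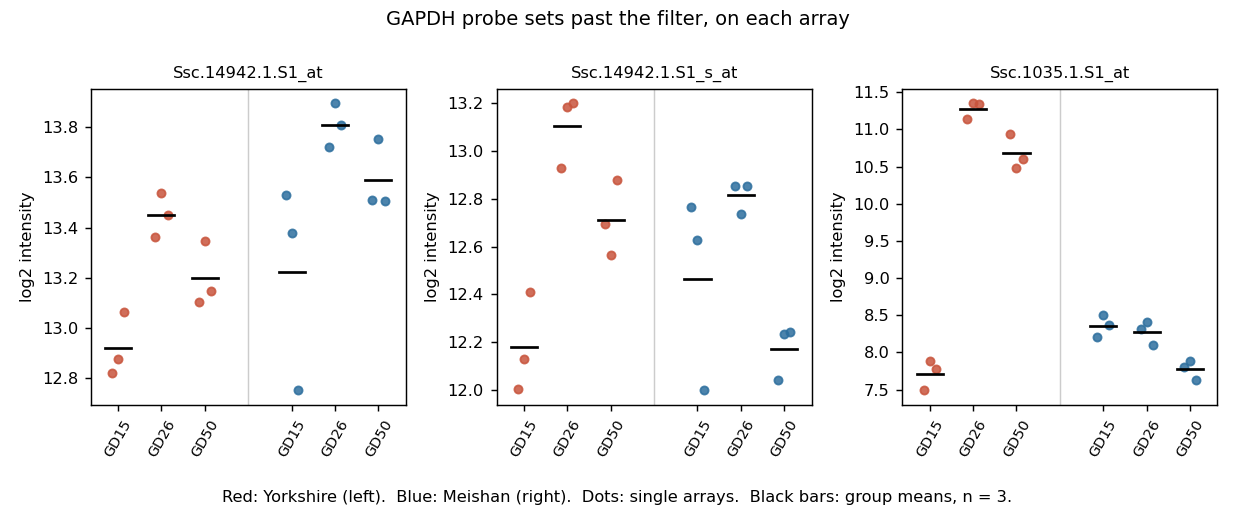
Log2 intensity of the 3 GAPDH probe sets past the filter (y axis, its own range in each panel) on every array, by gestational day (x axis), with Yorkshire in red on the left and Meishan in blue on the right. Dots are arrays and black bars are means of 3. In the right panel the Yorkshire GD26 and GD50 arrays lie between 10.49 and 11.36 and all other arrays between 7.49 and 8.50, a split that the left and middle panels do not show.

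The GeneChip also carries 9 GAPDH control probe sets, which lie along the transcript and were left out of the enzyme probe sets. As a description, all 9 were higher on GD26 than on GD15, by 0.65 to 1.80 in Yorkshire and by 0.19 to 0.86 in Meishan. All 9 were lower on GD50 than on GD26, by −0.44 to −0.13 in Yorkshire and −0.85 to −0.19 in Meishan. All 9 were lower in Yorkshire than in Meishan on GD15, by −0.58 to −0.27, while on GD26 the breed difference ran from −0.27 to 0.57 and on GD50 from −0.31 to 1.09. The direction between days was thus shared by the control probe sets, and the direction between breeds after GD15 was not.

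PGK1, which makes ATP from 1,3-bisphosphoglycerate, measured 10.67, 10.74 and 10.83 on GD15, 11.64, 11.64 and 11.54 on GD26 and 11.50, 11.71 and 11.53 on GD50 in Yorkshire. In Meishan it measured 11.15, 11.08 and 10.85 on GD15, 11.87, 11.73 and 11.85 on GD26 and 11.54, 11.70 and 11.77 on GD50. The GD15 arrays of each breed were below all later arrays, and GD26 and GD50 overlapped. PGK1 rose by 0.86 ± 0.15 (adjusted p = 7.40e-04) in Yorkshire and by 0.79 ± 0.13 (adjusted p = 8.51e-04) in Meishan. On the actin and EF1A scale the Yorkshire value was 0.35 (adjusted p = 0.112).

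ENO1 had its highest values on GD26 and intermediate ones on GD50. In Yorkshire it measured 10.09, 9.86 and 10.27 on GD15, 11.56, 11.84 and 11.65 on GD26 and 10.83, 11.18 and 11.04 on GD50. Its values in Meishan were 10.26, 10.06 and 9.70 on GD15, 11.27, 11.36 and 11.20 on GD26 and 10.74, 10.77 and 10.66 on GD50. No 2 days of a breed overlapped. ENO1 rose by 1.61 ± 0.18 (adjusted p = 4.99e-05) in Yorkshire by GD26, and by 1.27 ± 0.16 (adjusted p = 1.26e-04) in Meishan.

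LDHA, the subunit typical of lactate release, measured 10.36, 10.18 and 10.40 on GD15, 12.04, 11.56 and 11.60 on GD26 and 11.94, 11.83 and 11.74 on GD50 in Yorkshire. Its Meishan values were 10.69, 10.78 and 10.46 on GD15, 12.87, 12.58 and 12.54 on GD26 and 12.51, 12.44 and 12.35 on GD50. All 6 later arrays of a breed lay more than 1 log2 unit above its GD15 arrays, and on each of the 3 days all Yorkshire arrays were below all Meishan arrays. By GD26, LDHA rose by 1.42 ± 0.18 (adjusted p = 1.09e-04) in Yorkshire and by 2.02 ± 0.14 (adjusted p = 4.04e-06) in Meishan. Among the 9320 tested probe sets, 1027th and 428th were the places of LDHA in the order of rises in Yorkshire and in Meishan.

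LDHB was the 1 enzyme that fell. In Yorkshire it measured 13.63, 13.57 and 13.35 on GD15, 12.70, 12.69 and 12.70 on GD26 and 12.70, 12.70 and 12.63 on GD50. Meishan values were 13.59, 13.69 and 13.38 on GD15, 12.71, 12.80 and 12.73 on GD26 and 12.63, 12.51 and 12.48 on GD50. The 2 breeds overlapped on GD15, and the Yorkshire GD26 arrays differed by less than 0.02. LDHB fell by 0.82 ± 0.15 (adjusted p = 0.00101) in Yorkshire by GD26, and by 0.80 ± 0.13 (adjusted p = 6.18e-04) in Meishan. The median change over all tested probe sets in Yorkshire was −0.47 as deposited and −0.08 after centring. LDHB in Yorkshire changed by −0.42 after centring (adjusted p = 0.0478).

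**Figure D3:**
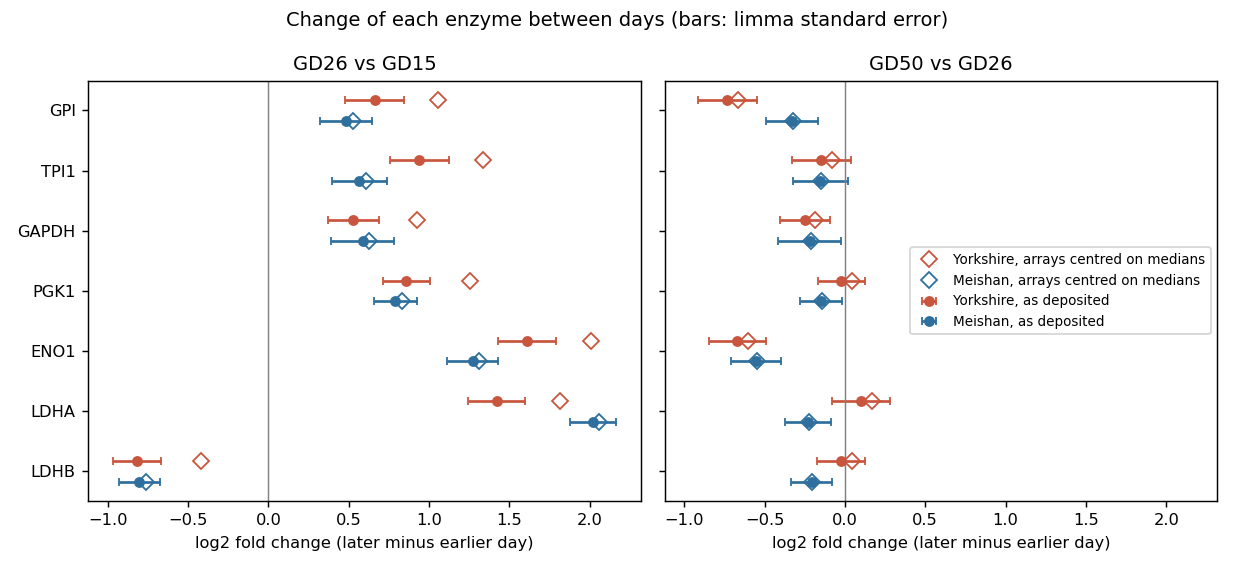
Log2 fold change of each enzyme (x axis, later minus earlier day) for GD26 against GD15 in the left panel and GD50 against GD26 in the right panel, with Yorkshire in red above Meishan in blue for each enzyme. Filled points are the deposited values with limma standard errors, and open diamonds are the values after each array was centred on its median. Centring moves the Yorkshire values for GD26 against GD15 to the right by about 0.39 and leaves the Meishan values nearly in place. Scaled on the actin and EF1A control probe sets, which is not drawn, all Meishan values of the right panel are above 0. The median of all tested probe sets in that Meishan step is then 0.64.

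LDHA and LDHB thus moved in opposite directions on the same arrays, and their difference within an array does not depend on the median of that array. LDHA minus LDHB was −3.27, −3.39 and −2.95 on GD15, −0.66, −1.13 and −1.10 on GD26 and −0.76, −0.87 and −0.89 on GD50 in Yorkshire. In Meishan it was −2.90, −2.91 and −2.91 on GD15, 0.16, −0.22 and −0.19 on GD26 and −0.12, −0.07 and −0.13 on GD50. As deposited, the Yorkshire arrays lay below the Meishan arrays on every day, with no overlap, narrowly so on GD15. The means were −3.20 ± 0.23 on GD15, −0.97 ± 0.26 on GD26 and −0.84 ± 0.07 on GD50 in Yorkshire, against −2.91 ± 0.01, −0.08 ± 0.21 and −0.11 ± 0.04 on these days in Meishan (SD, n = 3 each). By GD26 the difference had grown by 2.24 in Yorkshire and by 2.82 in Meishan, and from there to GD50 it changed by 0.12 in Yorkshire and by −0.02 in Meishan. Quantile normalization gave means of −3.21, −0.91 and −0.77 on the 3 days in Yorkshire and −2.92, −0.10 and −0.09 in Meishan. The breeds then overlapped on GD15, with a highest Yorkshire value of −2.98 and a lowest Meishan value of −3.01. Since the probe sets differ in brightness for equal amounts of RNA, a difference of 0 does not mean equal amounts of the 2 transcripts, and only its change between groups is read here.

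**Figure D4:**
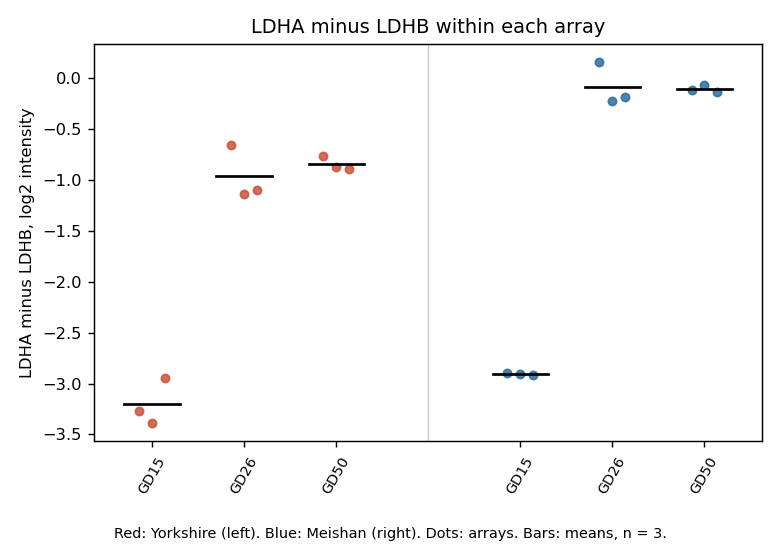
LDHA minus LDHB in log2 intensity (y axis) within each array, by gestational day (x axis), with Yorkshire in red on the left and Meishan in blue on the right. Dots are arrays and black bars are means of 3. The Yorkshire GD26 arrays lie between −1.13 and −0.66 and the Meishan GD26 arrays between −0.22 and 0.16, both far above GD15.

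On GD50 against GD26 few of the enzymes passed the test. In Yorkshire, GPI fell by 0.73 ± 0.18 (adjusted p = 0.0292) and ENO1 fell by 0.67 ± 0.18 (adjusted p = 0.0375), and the other 5 enzymes did not pass the test. In Meishan, ENO1 alone of the 7 fell, by 0.55 ± 0.16 (adjusted p = 0.0364), a change of 0.11 (adjusted p = 0.472) when scaled on actin and EF1A. Of all tested probe sets, 7.85% fell in Yorkshire and 10.2% fell in Meishan in this step. Every GD50 array lay below every GD26 array for GPI, GAPDH and ENO1 in Yorkshire, against 17.2% of all tested probe sets, and for GPI, ENO1, LDHA and LDHB in Meishan, against 22.7%. The median of the 7 enzymes was −0.15 in Yorkshire and −0.22 in Meishan, against −0.07 and −0.02 for all tested probe sets. None of the 3 calls held in every setting that left out 1 array: the Meishan ENO1 call was lost without any 1 of its 6 arrays, at adjusted p of 0.0738 to 0.112. Of the Yorkshire calls, ENO1 was also lost after centring (adjusted p = 0.0900), and both were lost without GD26 array 2 or 3. Both Yorkshire calls also ended on the actin and EF1A scale, with −0.38 (adjusted p = 0.199) for GPI and −0.32 (adjusted p = 0.334) for ENO1, and with the replicate number as a block (adjusted p = 0.0568 and 0.0606).

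The other enzymes did not pass the test in this step as deposited. LDHA changed by 0.10 ± 0.18 (adjusted p = 0.753) in Yorkshire and by −0.23 ± 0.14 (adjusted p = 0.311) in Meishan, and PGK1 by −0.02 ± 0.15 (adjusted p = 0.934) and −0.15 ± 0.13 (adjusted p = 0.489). Among the further GAPDH probe sets, the second fell by 0.64 ± 0.19 (adjusted p = 0.0450) and the third fell by 0.50 ± 0.14 (adjusted p = 0.0369) in Meishan. On the actin and EF1A scale these 2 Meishan values were 0.023 and 0.16. The call of the second was also lost without any 1 of the 6 arrays (adjusted p = 0.0893 to 0.143), after centring, loess or quantile normalization and with the block (adjusted p = 0.0562 to 0.0780), and that of the third without any 1 of 5 of the 6 arrays (adjusted p = 0.0628 to 0.125). Meishan TPI1, GAPDH, PGK1, LDHA and LDHB turned to 0.51, 0.44, 0.51, 0.43 and 0.46 on the actin and EF1A scale and were called higher on GD50 (adjusted p = 0.0115 to 0.0349). These values were below the median of all tested probe sets, which was 0.64 on that scale in this Meishan step.

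Between breeds on GD15, before the arrays stood apart, none of the 7 enzymes passed the test. PGK1 and LDHA were the 2 of them with an unadjusted p under 0.05 in limma, with differences of −0.28 ± 0.13 (adjusted p = 0.211) and −0.33 ± 0.15 (adjusted p = 0.234), and every Yorkshire array lay below every Meishan array for both, against 16.8% of all tested probe sets. Of all tested probe sets, 9.8% were called in this comparison. The 1 enzyme probe set among them was the third of GAPDH, lower in Yorkshire by −0.65 ± 0.16 (adjusted p = 0.0142). This call was lost without Meishan GD15 array 2 (adjusted p = 0.0683) or Yorkshire GD15 array 1 (adjusted p = 0.0824). It was also lost on the actin and EF1A scale (−0.48, adjusted p = 0.0709). Without Meishan GD15 array 3, GAPDH was lower in Yorkshire by −0.54 (adjusted p = 0.0292), against −0.30 ± 0.17 (adjusted p = 0.363) with it. That array was below its group mean for all 7 enzymes, by −0.47 to −0.18.

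On GD26, LDHA was lower in Yorkshire than in Meishan and ENO1 was higher. LDHA averaged 11.73 in Yorkshire and 12.66 in Meishan, a difference of −0.93 ± 0.15 (adjusted p = 1.67e-04). ENO1 averaged 11.68 in Yorkshire and 11.28 in Meishan, a difference of 0.41 ± 0.16 (adjusted p = 0.0438). Of all tested probe sets, 42.5% were lower and 10.7% higher in Yorkshire, so a lower value in Yorkshire was common on this day and a higher one was not. Every Yorkshire array lay below every Meishan array for GAPDH, PGK1, LDHA and LDHB, against 45.5% of all tested probe sets, and above for TPI1 and ENO1, against 12.5%. After centring, the LDHA difference was −0.58 ± 0.15 (adjusted p = 0.00533) and the ENO1 difference 0.76 ± 0.19 (adjusted p = 0.00497), and GPI and TPI1 were higher in Yorkshire as well, by 0.49 (adjusted p = 0.0360) and 0.65 (adjusted p = 0.00661), where 19.1% of all tested probe sets were higher and 22.2% lower. As deposited, GPI differed by 0.14 ± 0.17 and TPI1 by 0.30 ± 0.17, neither past the test, and on the actin and EF1A scale GPI differed by −0.14. ENO1 was at 0.13 (adjusted p = 0.535) on that scale, LDHA at −1.21, and GAPDH, PGK1 and LDHB were called lower in Yorkshire, at −0.64, −0.49 and −0.33. The median difference of all tested probe sets was −0.70 on that scale. The LDHA call held in each setting with 1 array left out, while the ENO1 call was lost without any 1 of the 3 Meishan arrays or without Yorkshire array 2 or 3, at adjusted p of 0.0628 to 0.147.

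On GD50, LDHA was again lower in Yorkshire, at 11.83 against 12.43 in Meishan, a difference of −0.60 ± 0.15 (adjusted p = 0.00418). This call ended after centring (−0.18, adjusted p = 0.328) and held after quantile normalization (−0.49, adjusted p = 0.0107) and on the actin and EF1A scale (−1.19, adjusted p = 1.58e-05). No other enzyme passed the test as deposited, against 45.6% of all tested probe sets lower and 10.9% higher in Yorkshire. Every Yorkshire array lay below every Meishan array for GPI, GAPDH and LDHA, against 51.1% of all tested probe sets, and above for ENO1 and LDHB, against 12.7%. After centring, TPI1, ENO1 and LDHB were higher in Yorkshire, by 0.72, 0.70 and 0.55 (adjusted p = 0.00322, 0.00770 and 0.00402), where 20.9% of all tested probe sets were higher and 22.6% lower. On the actin and EF1A scale LDHB turned to −0.45 and was called lower in Yorkshire (adjusted p = 0.0060). ENO1 and TPI1 turned to −0.30 and −0.29, neither past the test. GPI, GAPDH and PGK1 were called lower in Yorkshire on that scale, at −0.85, −0.98 and −0.68 (adjusted p = 1.72e-04, 5.27e-05 and 6.90e-04). The median difference of all tested probe sets was −1.05 on that scale. The third GAPDH probe set was higher in Yorkshire by 3.00 ± 0.16 on GD26 and by 2.90 ± 0.16 on GD50, and the second by 0.54 ± 0.18 (adjusted p = 0.0205) on GD50, which turned to −0.053 on the actin and EF1A scale.

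**Figure D5:**
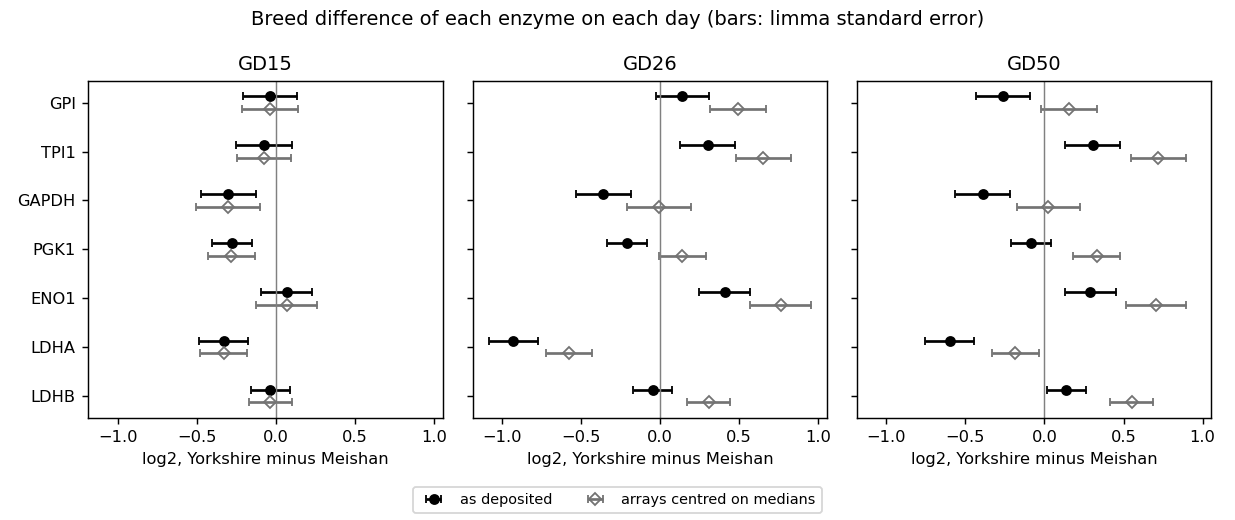
Yorkshire minus Meishan log2 difference of each enzyme (x axis) on GD15, GD26 and GD50, with limma standard errors. Black points are the deposited values and grey diamonds the values with arrays centred on their medians. LDHA is at −0.93 on GD26 as deposited and −0.58 after centring, and the 2 scales differ by about 0.35 on GD26 and 0.41 on GD50. Scaled on actin and EF1A, which is not drawn, ENO1, TPI1 and LDHB are below 0 on GD50 and GPI on GD26. The median of all tested probe sets is then −0.70 on GD26 and −1.05 on GD50.

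Whether the breeds differed in the change itself was tested as Yorkshire change minus Meishan change. For GD26 against GD15, LDHA had −0.60 ± 0.22 (adjusted p = 0.0434), and 35.5% of all tested probe sets were called. The LDHA call was lost after quantile normalization (adjusted p = 0.0745), cyclic loess (adjusted p = 0.159) and centring (−0.25, adjusted p = 0.412), and without any 1 of 8 of the 12 arrays, while the actin and EF1A scale gave −1.04 (adjusted p = 0.00245). The median of all tested probe sets was −0.41 as deposited and −0.85 on the actin and EF1A scale. Of the GAPDH probe sets, the third had 3.65 ± 0.22 (adjusted p = 3.86e-08), and the representative one had −0.06 ± 0.25 (adjusted p = 0.873). The differences of ENO1, TPI1, GPI, PGK1 and LDHB ran from −0.01 for LDHB to 0.37 ± 0.25 for TPI1, with none past the test as deposited. TPI1 passed after centring (0.73, adjusted p = 0.0361) and after cyclic loess (0.66, adjusted p = 0.0435) and was at −0.07 on the actin and EF1A scale, and the second GAPDH probe set passed after centring (0.92, adjusted p = 0.0265) and cyclic loess (0.72, adjusted p = 0.0439). For GD50 against GD26 no enzyme probe set passed, and none had an unadjusted p under 0.05 in limma, with 4.37% of all tested probe sets called. The largest of these differences was −0.40 ± 0.24 for GPI.

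Genes of other steps of glucose use moved in both directions by GD26. The counts stand beside 20.3% of all tested probe sets higher and 44.9% lower in Yorkshire, and 23.8% higher and 27.1% lower in Meishan. The genes come from lists chosen with earlier results of these data known. Of 20 other glycolytic isozymes and regulators 5 were measured. Of these, 1 rose and 2 fell in Yorkshire, and 3 fell in Meishan. PFKP, a phosphofructokinase isoform at a rate-limiting step, fell by 2.09 ± 0.20 in Yorkshire and by 1.47 ± 0.14 in Meishan. PKM, the muscle-type pyruvate kinase, was at least 1.47-fold lower on GD26 in Yorkshire (adjusted p = 8.45e-04) and fell by 0.62 ± 0.19 in Meishan. The liver-type phosphofructokinase PFKL rose by 0.88 ± 0.22 in Yorkshire, with 0.42 ± 0.25 (adjusted p = 0.184) in Meishan. HK1, the hexokinase measured here, fell by 0.56 ± 0.13 in Meishan, with −0.36 ± 0.15 (adjusted p = 0.0609) in Yorkshire. PKM and PFKP thus fell where the 6 enzymes rose, and the median of these 5 genes was −0.36 in Yorkshire and −0.56 in Meishan.

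Of 10 sugar and lactate transport genes 5 were measured. By GD26, 3 rose and none fell in Yorkshire, and 2 rose and 2 fell in Meishan. SLC2A5, the fructose transporter GLUT5, was at least 7.40-fold higher on GD26 in Yorkshire and at least 3.21-fold higher in Meishan, and by GD50 it rose by a further 3.34 ± 0.27 and 4.09 ± 0.23 in these breeds. SLC2A3, the neuronal-type glucose transporter GLUT3 that trophoblast also carries, rose by 4.41 ± 0.17 in Yorkshire and by 2.80 ± 0.22 in Meishan. BSG, the chaperone of the lactate transporters, rose by 1.87 ± 0.17 in Yorkshire, with 0.33 ± 0.14 (adjusted p = 0.0682) in Meishan. SLC2A1, the widespread glucose transporter GLUT1, fell by 0.72 ± 0.16 in Meishan, with −0.43 ± 0.17 (adjusted p = 0.0515) in Yorkshire. SLC2A8, a further glucose transporter, fell by 1.36 ± 0.23 in Meishan, with −0.51 ± 0.31 (adjusted p = 0.173) in Yorkshire.

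Of 13 genes of pyruvate entry to mitochondria 8 were measured, and by GD26 3 rose and 2 fell in each breed. PDK4, a kinase that turns off pyruvate dehydrogenase, was at least 13.9-fold lower on GD26 in Yorkshire and fell by 2.62 ± 0.38 in Meishan. The dehydrogenase subunits PDHA1 and PDHB rose by 1.65 ± 0.40 and 1.08 ± 0.19 in Yorkshire, and by 1.41 ± 0.19 and 1.30 ± 0.19 in Meishan. MPC1, a further gene of this list, fell by 1.26 ± 0.15 (adjusted p = 8.18e-05) in Yorkshire, with −0.28 ± 0.16 (adjusted p = 0.174) in Meishan. PC, pyruvate carboxylase, rose by 1.21 ± 0.40 (adjusted p = 0.0227) in Yorkshire and was at least 1.35-fold lower on GD26 in Meishan (adjusted p = 2.65e-04), with a call for the breed difference itself (adjusted p = 2.18e-04). The median of the 8 genes was 0.20 in Yorkshire, or 0.15 with values under 100 set to 100, and 0.09 in Meishan.

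In the remaining branches, FBP1, the gluconeogenic phosphatase and the 1 measured gene of 6 in that list, rose by 1.85 ± 0.27 in Yorkshire and was at least 1.46-fold higher on GD26 in Meishan (adjusted p = 0.0431). Of 7 pentose phosphate genes 4 were measured. TKT, transketolase, rose by 1.73 ± 0.21 in Yorkshire and by 1.09 ± 0.21 in Meishan, and PGD, which makes NADPH, fell by 1.10 ± 0.22 in Meishan, with −0.50 ± 0.22 (adjusted p = 0.0700) in Yorkshire. Of 13 glycogen and polyol genes 5 were measured, with 2 higher and 1 lower in Yorkshire and 2 higher and 2 lower in Meishan. SORD, which forms fructose from sorbitol, rose by 0.96 ± 0.24 in Yorkshire and by 1.38 ± 0.17 in Meishan, and by GD50 it fell by 1.09 ± 0.24 in Yorkshire and fell by 0.96 ± 0.17 in Meishan. UGP2, which makes the sugar donor of glycogen, rose by 1.12 ± 0.18 in Yorkshire and by 1.34 ± 0.18 in Meishan, and PYGL, glycogen phosphorylase, fell by 1.56 ± 0.24 in Yorkshire and fell by 0.84 ± 0.18 in Meishan.

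Of 14 genes of the response to low oxygen 6 were measured. By GD26, 4 rose in Yorkshire and 3 rose in Meishan, and none fell, beside 20.3% and 23.8% of all tested probe sets higher in these breeds. HMOX1, heme oxygenase, was at least 20.1-fold higher on GD26 than on GD15 in Yorkshire and at least 10.7-fold higher in Meishan. In the next step it fell by 3.85 ± 0.34 in Yorkshire and was at least 10.7-fold lower on GD50 in Meishan. The transcription factor EPAS1 rose by 2.22 ± 0.24 in Yorkshire and by 0.90 ± 0.16 in Meishan, and its target VEGFA, an angiogenic factor, by 1.87 ± 0.25 and 0.84 ± 0.14. HIF1A, the other factor of this response, changed by −0.15 ± 0.17 in Yorkshire and by 0.04 ± 0.19 in Meishan, neither past the test. The median of the 6 genes was 1.43 in Yorkshire and 0.53 in Meishan.

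Across the 18 arrays, which share libraries, groups and array medians, PGK1 and LDHA had the most similar patterns among the 7 enzymes, at a Pearson r of 0.95. LDHB ran against both, at −0.89 with PGK1 and −0.88 with LDHA. ENO1 was closest to TPI1, at 0.88. These values include the shifts between groups. For deviations of the arrays from their group means, r was 0.27 for PGK1 and LDHA and 0.37 for ENO1 and TPI1. With LDHB it was −0.02 for PGK1 and 0.24 for LDHA. Over the 18 arrays, the genes outside the 9 enzymes with the most similar patterns, over the representative probe sets of 4340 genes, were HTATIP2 (0.98), OLA1 (0.97) and MANF (0.97) for LDHA, and IGF1 (0.98), MTCH1 (0.98) and ARL6IP1 (0.98) for LDHB. IGF1 encodes insulin-like growth factor 1. For PGK1 they were PTPMT1 (0.97), TNFRSF12A (0.97) and DNAJB11 (0.96), and for ENO1 they were SEPT11 (0.96), KIF5C (0.95) and ELOVL6 (0.95). MANF and DNAJB11 are proteins of the endoplasmic reticulum. TPI1 was followed by CIAPIN1, HSP90B1 and GOLM1 (0.93, 0.93 and 0.92), GAPDH by INPP1, ACADVL and LMNA (0.92, 0.91 and 0.90) and GPI by NDUFS1, ZDHHC9 and PROM2 (0.88, 0.88 and 0.88).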

How the data were processed

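The authors hybridized 18 RNA pools to the porcine Affymetrix GeneChip. The deposited values are log2 intensities per probe set, which the authors made with GCRMA (background correction, normalization and summarization). RMA is named as well in the submitters' notes, and the versions are not given in the sources used here. The table held 24123 probe sets, 124 of them controls, and the raw intensities were not used. Gene symbols came from the platform annotation, in which 10099 probe sets have 1 symbol, 198 several and 13826 none.

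The filter of the study's methods kept probe sets that exceeded an intensity of 100 on 6 or more arrays, and 9320 remained without controls. limma 3.58.1 in R 4.3.3 (lmFit, eBayes) was fitted in each breed over its 3 days, and in 1 fit over the 6 groups for breeds, as Yorkshire minus Meishan. Calls were made at a p under 0.05 after Benjamini-Hochberg adjustment over these 9320, and every adjusted p in the text is this one. The fits were tested on simulated data. Plots were made in Python 3.11.15 with matplotlib 3.10.9.

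The named genes are the members, up to 4 genes with the largest change past the test from each pathway list, and the 3 genes of most similar pattern. All 5 measured transport genes are named. MPC1, and HIF1A, which did not pass, are also given with their values. The members and lists were chosen with earlier results of these data known. The correlation between arrays of 1 group was 0.948 to 0.991, and no arrays were identical. The number of arrays limits the precision. Replicate numbers did not pair the samples. Alternatives were other scalings (quantile, cyclic loess, median centring), other filters, other fits, the replicate number as a block, and each array left out. Scaling on 7 actin and EF1A control probe sets, and leaving out Yorkshire GD26 arrays 2 and 3 together, were added after seeing the data.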

Additional observations from a re-analysis of the deposited data

Results flagged for a closer look

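The change from GD15 to GD26 differed between the breeds in a test of the difference itself for 2 of the 9 enzyme probe sets. Of all tested probe sets, 35.5% were called in this comparison. The third GAPDH probe set was higher on the 6 Yorkshire GD26 and GD50 arrays that stood apart than on any of the other 12. Its Yorkshire change minus its Meishan change was 3.65 ± 0.22 (limma, adjusted p = 3.86e-08), with changes of 3.57 in Yorkshire and −0.08 in Meishan. Without Yorkshire GD26 arrays 2 and 3 this difference was 3.51, but array 1, which remains, is also among the 6. The part of that split in the difference was not tested. The other GAPDH probe sets gave differences of −0.06 and 0.57, neither past the test. For LDHA the difference between the breeds was −0.60 ± 0.22 (adjusted p = 0.0434), with changes of 1.42 in Yorkshire and 2.02 in Meishan. It was −0.25 (adjusted p = 0.412) after each array was centred on its median.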

How the results depend on the processing

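Of the 9 enzyme probe sets, 9 were called for GD26 against GD15 in Yorkshire and 7 in Meishan, 2 and 3 for GD50 against GD26, 1, 3 and 3 between breeds on GD15, GD26 and GD50, and 2 and 0 for the breed difference in the first and second change. With Bonferroni adjustment and a fold change of at least 2 these counts were 1, 1, 0, 0, 0, 1, 1, 1 and 0. For GD50 against GD26 in Yorkshire the count was 1 with centring, 1 with no filter, 0 with the replicate number as a block and 0 without Yorkshire GD26 arrays 2 and 3 together; in Meishan it was 0 with no filter. Between breeds it was 6 on GD26 and 5 on GD50 with centring and 5 on both days with cyclic loess. For the breed difference in the first change it was 1 after quantile normalization and 1 without Yorkshire GD26 arrays 2 and 3 together. With the replicate block, ENO1 on GD26 between breeds had an adjusted p of 0.0568; deviations of arrays with 1 number correlated at −0.56 to 0.33, against −0.36 to 0.55 for other pairs, so the number does not mark a shared sample.

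Scaling on the actin and EF1A control probe sets gave 4 for GD26 against GD15 in Yorkshire, 0 and 5 for GD50 against GD26 in Yorkshire and Meishan, and 0, 5 and 6 between breeds on the 3 days. It moved the median of all tested probe sets to −0.99 in the Yorkshire first step, to 0.64 in the Meishan second step and to −1.05 between breeds on GD50. Under it 10 values that passed the test on at least 1 of the 2 scales changed sign: in Meishan on GD50 against GD26, TPI1 was 0.51, GAPDH 0.44, the second GAPDH probe set 0.023, the third 0.16, PGK1 0.51, ENO1 0.11, LDHA 0.43 and LDHB 0.46, and between breeds on GD50, the second GAPDH probe set was −0.053 and LDHB −0.45. Others that passed on neither scale also changed sign. The share of all tested probe sets called on this scale is not reported here. The scale uses the actin control probe sets, whose 5′ minus 3′ difference separated Yorkshire GD26 and GD50 from the other arrays, and those of EF1A. Their mean was 12.68 to 12.88 on the Meishan GD50 arrays and 13.40 to 13.51 on the Meishan GD26 arrays. The cause of the changes of sign was not tested.

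With 1 array left out the counts ran from 8 to 9 and from 4 to 7 for GD26 against GD15 in Yorkshire and Meishan (4 without Meishan GD26 array 1 or 2), from 0 to 2 and from 0 to 1 for GD50 against GD26, from 0 to 2, 2 to 3 and 2 to 4 between breeds on the 3 days, and from 1 to 2 and 0 to 0 for the breed difference in the first and second change. For GD26 against GD15, LDHA, ENO1, PGK1 and LDHB stayed called in both breeds with any 1 array left out.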
